A study of Mus musculus with 12 samples.

Results

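The hypothalamus of mice lacking interleukin-18 was compared with that of wild-type littermates on 1 array a side. KO stands for IL-18-/- males and WT for wild-type males, both aged 12 weeks and both drawn from F2 litters of a cross between IL-18-/- and C57BL/6 mice. Equal RNA from 5 mice was pooled for each array, so the spread between mice was not measured and no difference between these 2 arrays has a test. They are 2 of 12 arrays in a series that covers 6 brain regions. Animals were perfused with cold saline, and the hypothalamus was taken from the same coronal level as the amygdala and the hippocampus. The KO mice carry the disrupted gene in every cell, and the exons removed are not given in the sources used here.

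The genes described were those whose probe was well above background on both hypothalamus arrays and brighter than the median of such probes. Of 41174 gene probes, 30939 were well above background on both arrays, 578 on the KO array alone and 893 on the WT array alone. The brighter part held 15469 probes, standing for 12812 genes and transcripts, of which 8952 are named. A level below is log2 of the processed signal minus the 75th percentile of that array, and a difference is the KO level minus the WT level. The limit of the brighter part lay at a mean level of -1.43. Pum3, just inside it, differed by 0.26, and Chd9, just outside it, by -0.15.

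The hypothalamus makes peptides that govern body water, feeding, growth, reproduction and stress. Its magnocellular neurons release oxytocin and vasopressin into the blood, and its releasing factors drive hormone cells of the pituitary, the gland that hangs from its base. The choroid plexus, which secretes cerebrospinal fluid, and the meninges, which wrap the brain, lie against the same block of tissue. Interleukin-18 is made as a precursor, is cut by caspase-1 and acts through a receptor of the interleukin-1 receptor family.

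The 2 arrays carried hypothalamic markers, as their labels say. Pmch, the precursor of melanin-concentrating hormone made by lateral hypothalamic neurons, had a level of 5.93 on the KO array and 5.92 on the WT array. Hcrt, the precursor of the orexins, had 5.36 on KO and 5.48 on WT. On 9 of the other 10 arrays Pmch lay between -5.72 and -1.09. The exception was the array labelled amygdala WT, at 6.02, and Hcrt was at 5.77 there. The hypothalamus KO and WT arrays had 30 genes 2-fold apart by the rule used below, while 8 such genes separated the array labelled amygdala WT from hypothalamus WT. Levels on the array labelled amygdala WT are therefore given beside several results, and the counts over all genes, the list medians and the values of named genes were repeated with it in place of hypothalamus WT. That array is also the WT side of the amygdala pair, and statements below on all other regions or on every region include this pair. The 2 hypothalamus arrays had a 75th percentile signal of 596 in KO and 625 in WT, with 77.2% of KO spots and 77.9% of WT spots well above background. Both arrays of each region lay at the same places on their slides in every region, so slide position and genotype cannot be told apart.

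The promoters of 4 of the peptide, pituitary and activity-responsive genes described below are shown first. Of these 4, Fos, at a difference of -0.46, was less than 1.5-fold apart. The other windows searched, those of choroid plexus genes among them, held no match and are not printed. Each is the 200 bases before the RefSeq start, from GRCm38.p6, and capitals mark matches on either strand to the motif named for that gene. The window of Oxt (chr2:130575969-130576168, plus strand) and that of Avp (chr2:130582589-130582788, minus strand) were searched for the nuclear receptor half-site AGGTCA. The window of Prl (chr13:27057370-27057569, plus strand) was searched for the POU1F1 core ATGNATA, and that of Fos (chr12:85473690-85473889, plus strand) for the cyclic AMP response element core TGACGT.
Oxt: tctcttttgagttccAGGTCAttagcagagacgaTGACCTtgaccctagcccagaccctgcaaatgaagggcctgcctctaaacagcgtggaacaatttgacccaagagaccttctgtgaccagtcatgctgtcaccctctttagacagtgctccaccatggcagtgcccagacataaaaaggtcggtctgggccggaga
Avp: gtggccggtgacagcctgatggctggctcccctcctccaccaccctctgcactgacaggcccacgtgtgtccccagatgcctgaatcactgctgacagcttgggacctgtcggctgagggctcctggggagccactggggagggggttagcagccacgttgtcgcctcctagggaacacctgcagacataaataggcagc
Prl: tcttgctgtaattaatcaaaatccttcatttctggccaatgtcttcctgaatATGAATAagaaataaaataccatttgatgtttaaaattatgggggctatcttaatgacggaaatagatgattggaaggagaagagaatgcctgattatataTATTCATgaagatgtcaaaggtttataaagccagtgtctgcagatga
Fos: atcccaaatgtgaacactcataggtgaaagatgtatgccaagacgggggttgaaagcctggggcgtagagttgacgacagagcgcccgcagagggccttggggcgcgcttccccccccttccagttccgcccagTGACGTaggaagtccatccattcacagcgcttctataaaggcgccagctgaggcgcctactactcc
Oxt held 2 half-sites, 1 on each strand, and Avp held 0, while 11.4% of 32851 RefSeq windows of the same length held at least 1. Prl held 2 matches to its core, which 6.11% of windows held. Fos held 1 match to its core, which 5.85% of windows held. The same searches gave 0 matches to the POU1F1 core in Cga and Tshb, and 0 to the cyclic AMP core in Cga and Nr4a1. The OTX2 core TAATCC, held by 4.91% of windows, had 0 matches in the windows of Kl, Aqp1, Kcne2, Steap1, Cldn2, F5 and Igf2. Gh, Folr1, Cryab and Hspb2 were on the search list without a window. A match is a description of letters, and the absence of one says nothing of the factor.

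Il18, the targeted gene, had a level of -3.78 in KO and 0.75 in WT, a difference of -4.52 with a spot error of 0.07 from the scanner software. Its KO signal was 23-fold lower. The mean of both levels placed it just under the brightness limit, so it is not among the 12812. In the other 5 regions its difference lay between -5.10 and -3.73, so the genotype labels and the targeted gene go the same way on every pair. As a list, the IL-18 pathway was otherwise close to level. Of 22 genes listed for it, 18 were well above background on both arrays, with a median difference of 0.05. Neither array had signal well above background for Il18r1 or Il18rap, the receptor chains. Casp1, which cuts the precursor, had -1.57 in KO and -1.90 in WT. Il18bp, a secreted binding protein of the cytokine, had -2.10 in KO and -1.83 in WT. Beside Il18, none of the 18 lay 1.5-fold apart, where 1.16% of all genes were higher and 2.39% lower by that size.

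Most of the hypothalamic transcriptome was close between KO and WT. The median difference of the 12812 genes was 0.023, the median absolute difference 0.080, and the 5th and 95th percentiles were -0.22 and 0.22. Repeated spots of 1 probe gave an SD of 0.106 for such a difference, and the scanner software's error of a difference had a median of 0.20. Of these genes, 5 (0.039%) were at least 2-fold higher in KO and 25 (0.195%) at least 2-fold lower. At 1.5-fold, 39 (0.304%) were higher and 84 (0.656%) lower. Among all 24731 genes and transcripts above background, dim ones included, 286 (1.16%) were 1.5-fold higher and 592 (2.39%) lower, while 91 (0.368%) were 2-fold higher and 161 (0.651%) lower. By any amount, 12369 of the 24731 were higher in KO and 12362 lower. By the same rule the hypothalamus pair had 30 genes 2-fold apart. The olfactory bulb pair had 17, the striatum pair 58, the hippocampus pair 66, the prefrontal cortex pair 191 and the amygdala pair 269, so the hypothalamus lay toward the low end.

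**Figure D1:**
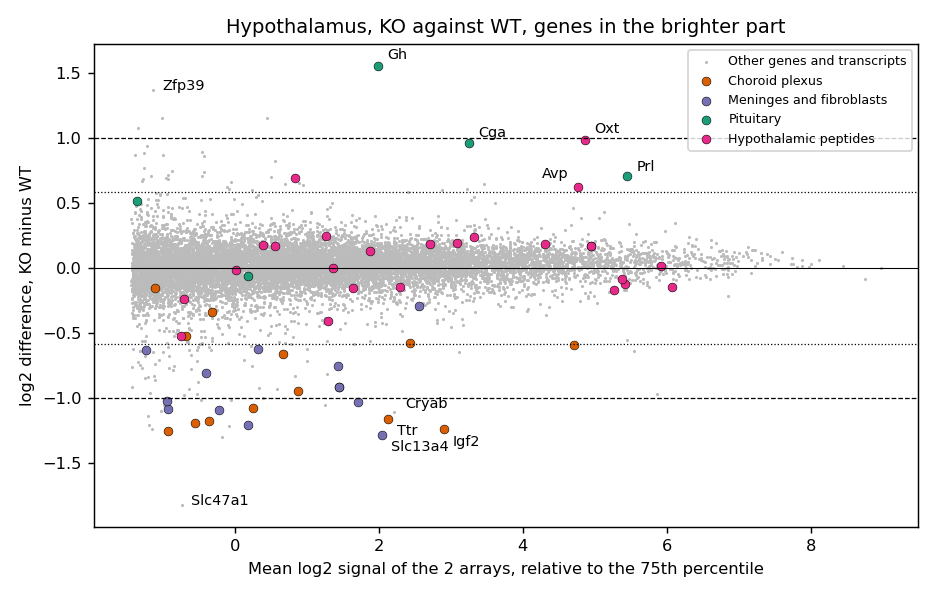
Each point is 1 of the 12812 genes and transcripts of the brighter part, with the mean level of the 2 arrays on the x axis and the log2 difference, KO minus WT, on the y axis. Dashed lines stand at 2-fold and dotted lines at 1.5-fold. The choroid plexus and meninges genes lie below 0, and Gh, Cga, Oxt, Prl and Avp lie above the upper dotted line.

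Genes of the choroid plexus were lower in KO as a group. Of 20 listed, 18 were above background on both arrays. All 18 were lower in KO, 13 of them by at least 1.5-fold and 9 by at least 2-fold, with a median of -0.98, beside 2.39% of all genes 1.5-fold lower, 0.651% 2-fold lower and a median of all genes of 7.7e-05. The summed signal of the list was 42.4 in KO and 72.8 in WT, in units of the array's 75th percentile. Ttr, the thyroxine and retinol carrier that choroid plexus secretes, had 1.55 in KO and 2.71 in WT, a difference of -1.16. Igf2, a growth factor made by choroid plexus and meninges, had 2.29 in KO and 3.53 in WT. Both WT levels were matched on the array labelled amygdala WT, with 2.68 for Ttr and 3.61 for Igf2.

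The members of the list with the largest differences included channels and junction proteins of the secretory epithelium. Cldn2, a tight junction protein of leaky epithelia, differed by -1.43, though its levels of -4.31 in KO and -2.88 in WT are dim. Aqp1, a water channel of the apical membrane, had -1.55 in KO and -0.30 in WT. Kl, which encodes klotho, had -0.94 in KO and 0.23 in WT. Steap1, a metalloreductase family member, differed by -1.19. The smallest differences on the list were those of Prlr, the prolactin receptor, at -0.16, and Trpm3, a cation channel, at -0.31. Kcne2, a potassium channel subunit, differed by -1.08 and Otx2, a homeobox factor, by -1.01. The list thus spanned differences from -1.43 to -0.16.

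Genes of meninges and fibroblasts were lower in KO to a like degree. All 15 listed were above background on both arrays and lower in KO, 13 by at least 1.5-fold and 7 by at least 2-fold, with a median of -0.91. Over all genes 2.39% were 1.5-fold lower and 0.651% were 2-fold lower. Their summed signal was 18.8 in KO and 33.5 in WT. Slc13a4, a sulfate transporter, had 1.41 in KO and 2.69 in WT, and the array labelled amygdala WT had 2.70. Slc6a13, a GABA and taurine transporter, had -0.42 in KO and 0.79 in WT. Slc22a6, an organic anion transporter, had -0.75 in KO and 0.33 in WT. Matrix genes followed the transporters. Ogn, the small proteoglycan osteoglycin, differed by -1.65 and Fmod, fibromodulin, by -1.08. Mgp, matrix Gla protein, had 1.20 in KO and 2.22 in WT, and Aldh1a2, which makes retinoic acid, differed by -1.02. The exceptions were Bgn, at -0.09, and Vtn, at -0.29. The choroid plexus and meninges lists share 1 gene, Igfbp2.

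The choroid plexus and meninges lists held part of the largest single differences. Together they hold 34 genes, and 14 choroid plexus genes and 12 meninges genes were in the brighter part. Of all 12812 genes of that part, 0.195% were at least 2-fold lower. Of the 25 genes at least 2-fold lower, 23 are named and 12 of those stand on the choroid plexus or meninges list. Another 9 of the 23 are on no list used here. Among those 9, Slc47a1, an exporter of organic cations, was the lowest named gene of the brighter part, with -1.63 in KO and 0.18 in WT, a difference of -1.82. Slc6a20a, a transporter of proline, differed by -1.21, Ranbp3l by -1.24 and Serpind1, heparin cofactor II, by -1.14. The array labelled amygdala WT read 0.17 for Slc47a1, close to hypothalamus WT. In bulk tissue, fewer cells of a type and less RNA per cell cannot be told apart. The part that the amount of choroid plexus and meninges in the block has in the other differences was not tested.

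In the hypothalamus pair, markers of cells lining the ventricle did not move with the choroid plexus. The ependyma and tanycyte list had 18 genes above background, with a median of 0.02, 9 higher and 9 lower. None was 1.5-fold apart, beside 1.16% of all genes higher and 2.39% lower. In other regions the choroid plexus list took other values. The hippocampus pair had a median of 0.66 over 18 genes above background there. The median was 0.26 over 7 genes for the striatum pair, 0.03 over 12 for the prefrontal cortex pair and -0.19 over 14 for the olfactory bulb pair. The amygdala pair, whose WT side is the array discussed above, had -1.89 over 17. For the meninges list the medians were -0.07, 0.09, 0.05, -0.15 and -0.87 in that order. For the ependyma and tanycyte list they were 0.24, -0.02, -0.03, -0.12 and -1.23. The hypothalamus and the hippocampus, cut from 1 coronal level, thus had choroid plexus medians of opposite sign.

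**Figure D2:**
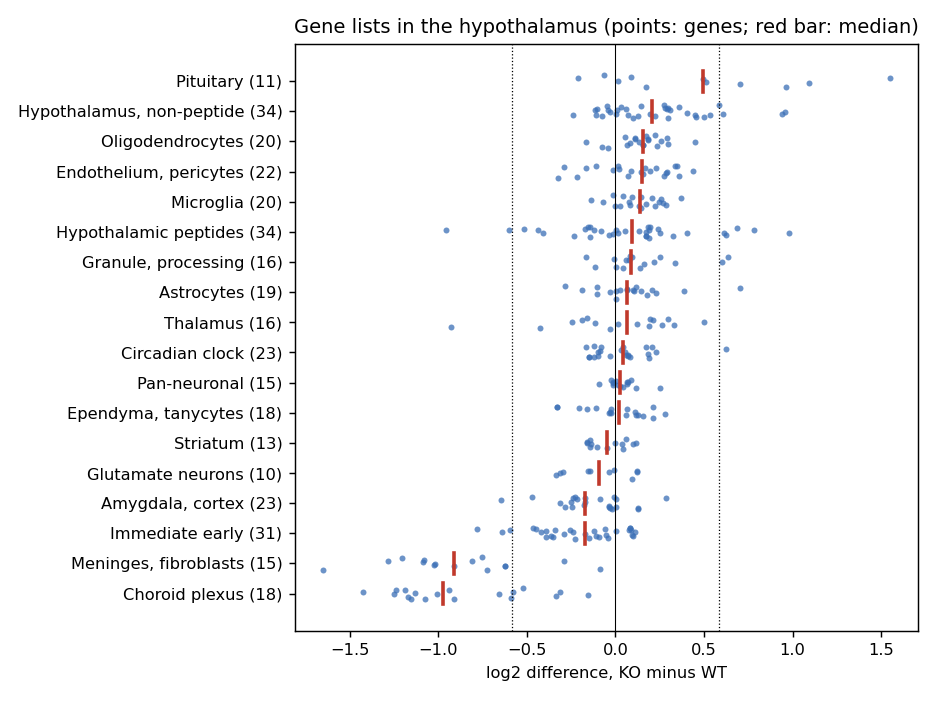
Each point is 1 gene of a list that was well above background on both arrays, placed by its log2 difference, KO minus WT, on the x axis, with the number of genes in brackets. Red bars are list medians and dotted lines stand at 1.5-fold. The choroid plexus and meninges medians lie at -0.98 and -0.91, the pituitary median at 0.50, and the other medians shown lie between -0.17 and 0.21.

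Hormone genes of the pituitary were higher in KO. Of 12 listed, 11 were above background on both arrays, 9 of them higher and 2 lower in KO, with 4 at least 1.5-fold higher and a median of 0.50, beside 1.16% of all genes. Gh, growth hormone, had 2.77 in KO and 1.21 in WT, a difference of 1.55 and the highest of the named genes in the brighter part. Prl, prolactin, whose promoter is printed above, had 5.80 in KO and 5.10 in WT. Cga, the alpha subunit shared by thyrotropin and the gonadotropins, had 3.73 in KO and 2.77 in WT. Tshb, the thyrotropin beta subunit, was dimmer, with -1.88 in KO and -2.98 in WT, a difference of 1.10. These were the 4 at least 1.5-fold higher, and the other hormone genes differed less. Pomc, made in both the pituitary and the arcuate nucleus, had 5.04 in KO and 4.87 in WT, and Lhb had 0.15 in KO and 0.21 in WT. Pitx1, a homeobox factor of the gland, had -1.09 in KO and -1.61 in WT, a difference of 0.51.

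The summed signal of the pituitary list was 111 in KO and 74.9 in WT, and its defining factor Pou1f1 was not well above background on either array. Gh read 1.49 on the array labelled amygdala WT, nearer to hypothalamus WT than to KO. Gh differed by 1.51 in hippocampus, by -1.03 in striatum, by -1.38 in prefrontal cortex and by -2.07 in olfactory bulb. The levels of Gh there were far lower, between -4.17 and -1.75. Prl differed by 1.04 in hippocampus, by -0.96 in striatum, by -1.84 in prefrontal cortex and by -2.26 in olfactory bulb. Gonadotropin-releasing hormone receptor, Gnrhr, was well above background on the KO array only, where it was at least 2.43-fold higher. The part of pituitary tissue in the differences of the peptide genes was not tested.

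Some peptide precursors of the magnocellular and releasing-factor neurons were among the genes higher in KO, while most peptides were less than 1.5-fold apart. Of 41 listed, 34 were above background on both arrays, 20 higher and 14 lower, with a median of 0.09. At 1.5-fold, 5 were higher and 2 lower, beside 1.16% and 2.39% of all genes. Oxt, oxytocin, had 5.35 in KO and 4.37 in WT, a difference of 0.98. Avp, vasopressin, its neighbour on the chromosome, had 5.08 in KO and 4.46 in WT, a difference of 0.62. On the array labelled amygdala WT, Oxt read 4.70 and Avp 4.69, between hypothalamus KO and WT for both. Against that array Avp was less than 1.5-fold higher in hypothalamus KO, while Oxt was still over 1.5-fold higher. Trh, thyrotropin-releasing hormone, had 1.18 in KO and 0.49 in WT. Gnrh1, gonadotropin-releasing hormone, had -1.52 in KO and -2.13 in WT. Nppc, C-type natriuretic peptide, had -1.33 in KO and -2.11 in WT. These were the 5 at least 1.5-fold higher, of which Oxt, Avp and Trh are in the brighter part.

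At the other end, 2 peptides were at least 1.5-fold lower, both dim. Ucn3, urocortin 3, had -4.30 in KO and -3.34 in WT, and Qrfp, an RFamide peptide, had -4.13 in KO and -3.52 in WT. Cort, cortistatin, differed by -0.52, Galp by -0.44 and Grp, gastrin-releasing peptide, by -0.41. The feeding peptides of the arcuate nucleus were less than 1.5-fold apart, with Npy level, Agrp lower and Cartpt higher in KO. Npy had 1.36 in KO and 1.36 in WT, Agrp, an antagonist of melanocortin receptors, -0.81 in KO and -0.58 in WT, and Cartpt 3.45 in KO and 3.21 in WT. Somatostatin, Sst, had 5.34 in KO and 5.43 in WT, and growth hormone-releasing hormone, Ghrh, 1.39 in KO and 1.14 in WT. The remaining peptides fell between a difference of -0.17 for Cck and 0.41 for Ucn. Pmch and Kiss1 differed by 0.01 and -0.04.

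**Figure D3:**
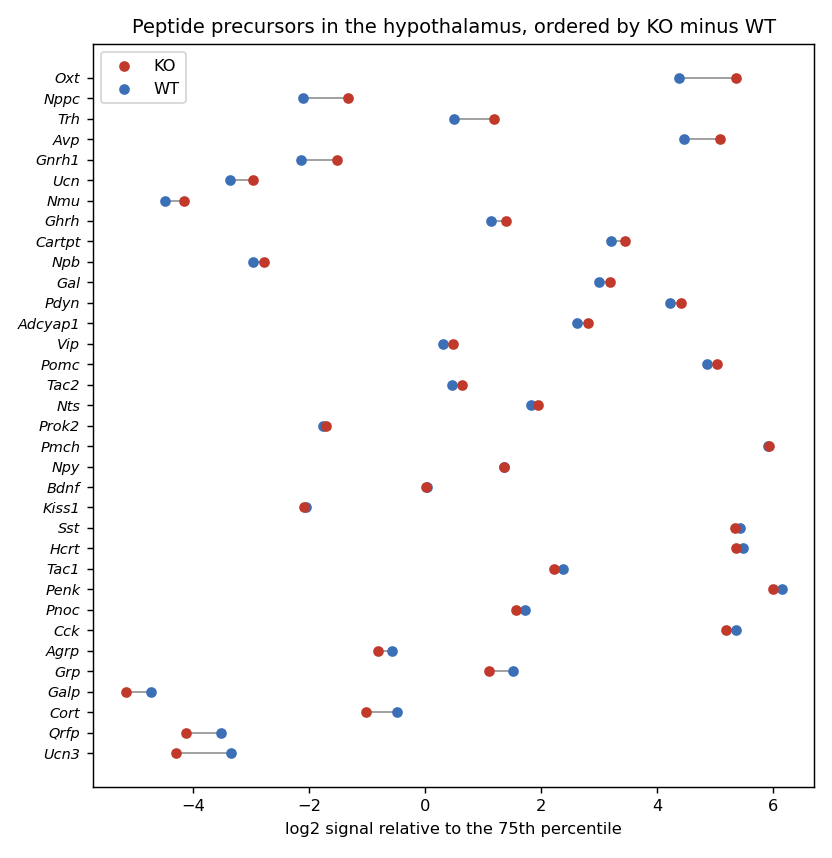
Levels of the 34 peptide precursors above background on both arrays, KO in red and WT in blue, on a log2 scale relative to the 75th percentile, ordered by KO minus WT. Oxt, Nppc, Trh, Avp and Gnrh1 head the order with KO above WT, and Ucn3 and Qrfp close it with KO below WT.

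Genes of secretory granules shifted little. All 16 measured members of 17 listed were counted, 13 of them higher in KO, with a median of 0.09. Of all genes 12369 of 24731 were higher. At 1.5-fold 2 of the list were higher, beside 1.16% of all genes. Sytl4, a granule docking protein, had 1.27 in KO and 0.63 in WT, and Pcsk1, which cleaves prohormones, had 0.54 in KO and -0.06 in WT. Chga, chromogranin A, differed by 0.34 and Pcsk2 by 0.14. Non-peptide genes typical of the hypothalamus had a median of 0.21 over 34, with 26 higher and 8 lower. Of these, 3 were at least 1.5-fold higher, beside the same 1.16%. Six6 and Hmx2, homeobox factors of the region, differed by 0.96 and 0.94 at dim levels, and Dlk1 had 0.23 in KO and -0.37 in WT. Peptide receptors were mostly level, with a median of 0.09 over 33 genes, and Trhr, the receptor of thyrotropin-releasing hormone, had -0.88 in KO and -0.16 in WT.

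Immediate early genes, which neurons switch on within minutes of stimulation, were mostly lower in KO by small amounts. Of 31 above background, 23 were lower and 8 higher, with a median of -0.17, and 3 were at least 1.5-fold lower, beside 2.39% of all genes. Egr2 had -1.25 in KO and -0.47 in WT, Atf3 -3.57 in KO and -2.93 in WT, and Ptgs2, the inducible cyclooxygenase, -4.67 in KO and -4.08 in WT. Fos, whose promoter is printed above, had -0.87 in KO and -0.41 in WT. Nr4a1 had 2.78 in KO and 3.23 in WT, a like difference at a bright level. Jun and Npas4 differed by 0.10 and 0.08. The array labelled amygdala WT gave Fos -0.39, close to hypothalamus WT. Fos was lower on the KO array in each of the 6 regions.

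Lists of glia and vessels had small positive medians, with most genes higher in KO. The median was 0.14 over 20 microglial genes (16 higher) and 0.07 over 19 astrocyte genes (14 higher). It was 0.16 over 20 oligodendrocyte and myelin genes (17 higher) and 0.15 over 22 genes of endothelium and pericytes (16 higher). Of all 24731 genes and transcripts above background, 12369 were higher and 12362 lower. None of the microglial, myelin or endothelial genes was 1.5-fold apart, beside 1.16% of all genes higher and 2.39% lower. Of the astrocyte genes 1 was, Slc6a11, with 0.86 in KO and 0.16 in WT. Its other probe differed by 0.06. In the list for amygdala and cortex 18 of 23 genes were lower, with a median of -0.17. Of these, 1 was at least 1.5-fold lower, beside 2.39% of all genes. Thalamic genes had a median of 0.07. Of 13 antigen presentation genes measured, 8 were higher and 5 lower, with a median of 0.10. Tap1, a peptide transporter of the class I pathway, was the 1 gene 1.5-fold apart, at 0.60, and the 5 lower were H2-Aa, H2-Ab1, Ciita, H2-Eb1 and Cd74, at -0.58 to -0.51. Of red cell genes, Hbb-bt had 0.97 in KO and 0.15 in WT and Hba-a1 -0.05 in KO and -0.79 in WT. Alas2, which starts haem synthesis in red cells, went the other way, at -4.21 in KO and -2.49 in WT, and what blood left after perfusion contributes was not tested. Of 14 thyroid hormone genes measured, 6 were higher and 8 lower, with a median of -0.10. At 1.5-fold 1 was higher and 2 were lower, beside 1.16% and 2.39% of all genes. Among them, Dio3, which inactivates the hormone, had -0.56 in KO and 0.45 in WT. Thrb, a receptor, had -2.76 in KO and -1.44 in WT.

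Other single genes also lay far apart. Zfp39, a zinc finger protein, had -0.44 in KO and -1.81 in WT, a difference of 1.37, and the array labelled amygdala WT read -1.80. In the other 5 regions its difference lay between -0.20 and 0.01. Taf15, an RNA-binding protein, had -0.82 in KO and 0.47 in WT and was lower in KO in all 5 other regions by this probe, while its other probe differed by -0.17 in the hypothalamus. Gabbr1, a GABA-B receptor subunit, had -1.57 in KO and -0.47 in WT, a difference of -1.10 whose sign was opposite in all 5 other regions. Grap, an adaptor protein, differed by 0.89, Rassf4 by 0.77 and Sema6a, a semaphorin, by 0.75, though the other probe of Sema6a differed by -0.08. Of 86 named genes 1.5-fold apart, 23 had over 1 probe above background, and in 3 of those the probes differed in sign. The array labelled amygdala WT read -1.80 for Gabbr1, below both hypothalamus arrays. The Gabbr1 difference of 0.55 in the amygdala pair rests on that array.

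**Figure D4:**
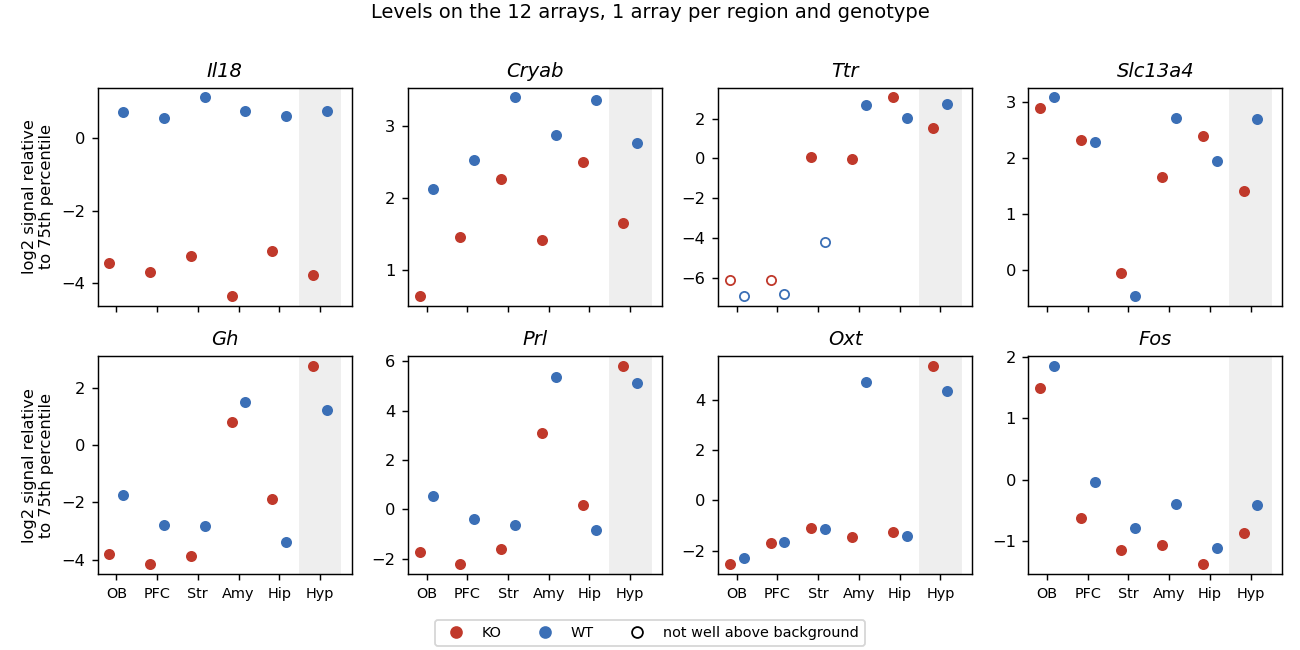
Levels of 8 genes on all 12 arrays, KO in red left of WT in blue, as log2 signal relative to the 75th percentile, with open circles where the probe was not well above background. OB is olfactory bulb, PFC prefrontal cortex, Str striatum, Amy amygdala, Hip hippocampus and Hyp hypothalamus (shaded). Il18 and Cryab are lower in KO in every region, and Oxt is high on the 2 hypothalamus arrays and on the array labelled amygdala WT.

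Genes near Il18 on chromosome 9 included several that differed in the hypothalamus. Of 80 measured genes, 40 on each side of Il18 in RefSeq order, 7 were at least 1.5-fold lower and 1 was higher, beside 2.39% and 1.16% of all genes, and the median absolute difference was 0.197, against 0.0958 over 14074 named genes. Cryab, alpha-B crystallin, a small heat shock chaperone 8 genes away, had 1.66 in KO and 2.77 in WT. It was lower in KO in the other 5 regions as well, by 0.86 to 1.48. Alg9, which adds mannose during N-glycan synthesis and lies 12 genes away, had 0.39 in KO and 1.03 in WT and was lower in KO in all 6 regions. The heat shock list, Cryab included, had a median of 0.04 over 20 genes, and Hyou1, at 0.60, was the other gene 1.5-fold apart.

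Further neighbours were dimmer. Nnmt, nicotinamide N-methyltransferase, had -2.41 in KO and -0.82 in WT. Atm, a DNA damage kinase, had -5.37 in KO and -4.16 in WT, and Plet1 had -4.04 in KO and -2.98 in WT. Rexo2, an oligoribonuclease, was brighter in KO, at 1.61, than in WT, at 1.11. Fdx1, ferredoxin 1, had 1.62 in KO and 1.32 in WT, and both were higher in KO in all 6 regions. Whether chromosomal segments of the parent strains around Il18 differ between the pools was not tested. Pts, next to Il18, had 1.72 in KO and 2.17 in WT.

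**Figure D5:**
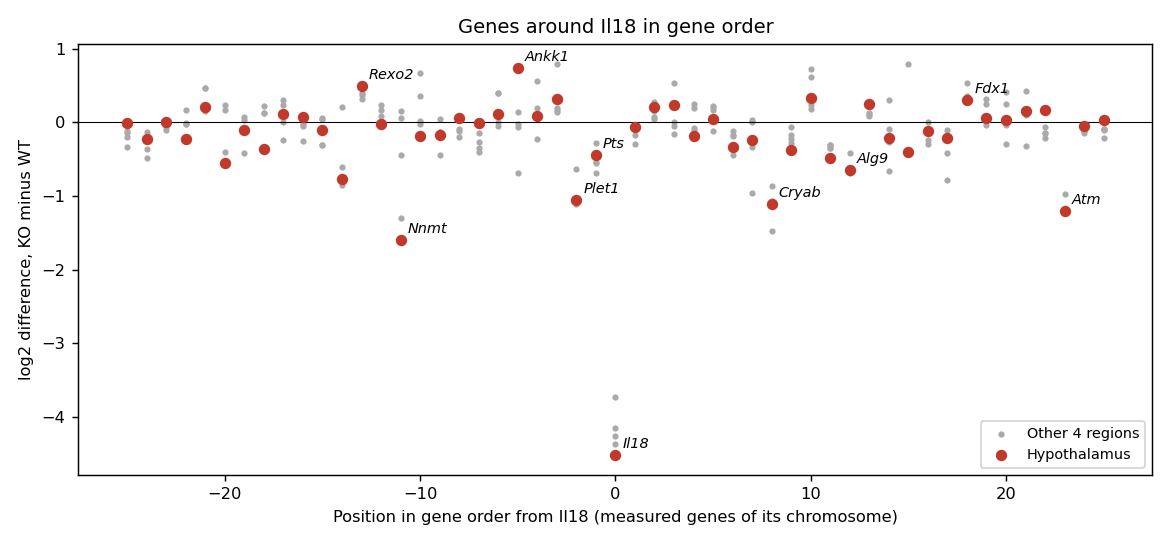
Log2 difference, KO minus WT, of measured genes up to 25 places from Il18 in RefSeq gene order, with the hypothalamus in red and the other regions (amygdala left out) in grey where above background. Il18 lies at -4.52 in the hypothalamus, Cryab at -1.11, and Alg9 at -0.64.

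The hypothalamic difference was tested against the differences of 4 other regions, leaving out the amygdala pair, in a limma fit over 23923 probes in which each region gave 1 difference. The hypothalamus has 1 difference of its own, so the error comes from the spread of the other regions alone and assumes that the hypothalamus varies like them. No probe passed an adjusted p of 0.05 (0 called, 0% of those tested), and 641 (2.68%) had an unadjusted p under 0.05. The smallest adjusted p was 0.215. Zfp39 had an estimate of 1.44 above the other regions (SE 0.14, limma adjusted p = 0.25), and Casp4 one of -1.48 (SE 0.14, limma adjusted p = 0.25). Fmod had -1.25 (SE 0.18, limma adjusted p = 0.54) and Gnrh1 0.95 (SE 0.14, limma adjusted p = 0.52). On simulated data of the same size the fit recovered 25% of 2-fold differences and 91% of those at log2 3, with 7 false calls. The simulation took the spread among the 4 other regions as the true spread of each probe, for the hypothalamus too. These rates therefore do not give the power of the test on the real arrays. No difference described above is called particular to the hypothalamus.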

How the data were processed

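The intensity values are scanner output deposited by the authors from 1-colour (Cy3) arrays, made with Agilent Feature Extraction 9.5.3.1 (protocol GE1-v5_95_Feb07) per the file headers, which background-subtracted and detrended them. The authors also deposited KO over WT ratio values. Here each array's log2 processed intensity was centred on its 75th percentile over 43379 gene spots. Control spots and outlier spots (92 in KO, 77 in WT) were left out, and none was saturated. The 10 spots of 245 probes were averaged. Names came from RefSeq tables of GRCm38.p6, which named 22951 of 41174 probes (55.7%), and each gene was represented by its brightest probe.

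No test was possible between the 2 arrays, so size rules of 2-fold and 1.5-fold were used. Regions were compared with limma 3.58.1 (lmFit, eBayes, Benjamini-Hochberg), checked on simulated data. The normexp alternative was an own normal plus exponential fit to median signals, offset 50, since mean signals were not used here. Precision is limited by the number of arrays.

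The members, the 31 gene lists and the tests were chosen with earlier results of these data known. Named genes were drawn from the 15 highest and 15 lowest, up to 6 per list by absolute difference, and the peptides. Defining markers that stayed level and genes of small p in the test against regions were drawn on too. Not every gene admitted by these rules is described. Of the 15 highest, Olfr1364, Cmtm7 and Pcdhb3, at differences of 1.07, 0.72 and 0.71, were left out above, and some peptides are given only as a range. Neighbours of Il18, Kcne2, Otx2, Igfbp2, Prlr, Trpm3, Aldh1a2, Bgn, Vtn, Lhb, Gnrhr, Jun, Npas4, Pcsk2 and the genes at the brightness limit were added after their values were seen. The motif table was revised 3 times after its matches had been seen, and every search made is reported, except the heat shock element core GAANNTTC (5.36% of windows), whose genes had no window. The values of 1 listed gene are not reported here.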

Additional observations from a re-analysis of the deposited data

Results flagged for a closer look

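Several hypothalamic differences ran opposite to those of another region. The limma test of hypothalamus against the 4 other regions together called none of them, and single pairs of regions were not tested. The median of the choroid plexus list was -0.98 in hypothalamus and 0.66 in hippocampus. Ttr differed by -1.16 in hypothalamus and by 1.05 in hippocampus. Gabbr1 differed by -1.10 in hypothalamus and by 1.17 in prefrontal cortex. Gh differed by 1.55 in hypothalamus, by -2.07 in olfactory bulb, by -1.38 in prefrontal cortex and by -1.03 in striatum. The limits used, 1.5-fold for list medians and 2-fold for genes in both regions, were chosen for this comparison.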

How the results depend on the processing

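The counts were most sensitive to the brightness limit. With dim probes included, 252 genes lay 2-fold apart (91 higher, 161 lower in KO) and 878 lay 1.5-fold apart (286 higher, 592 lower). With a stricter limit, 7 lay 2-fold apart (1 higher, 6 lower) and 30 lay 1.5-fold apart (12 higher, 18 lower). The choroid plexus median was -0.66 with normexp background and -1.10 with the array labelled amygdala WT in place of hypothalamus WT, an alternative added after seeing the data. The pituitary median was 0.37 with normexp, 0.83 with the stricter limit and 0.33 with that array. The peptide median was -0.021 with that array, against 0.093. The same exchange turned 2 genes round, Gabbr1 to 0.23 and Atf3 to 0.083. The cause of these shifts was not tested. The 6 counts stayed within 1.5 times under median scaling, quantile normalization, normexp, the mean of probes, the authors' deposited ratio and the array exchange. Across 62 single genes 1.5-fold apart, 361 of 363 recomputed values had the same sign and 322 stayed 1.5-fold apart. The test against regions called 0 probes under each alternative except median scaling, which called 1, lower in the hypothalamus (smallest limma adjusted p = 0.0417). Leaving out each region in turn gave between 0 and 0 calls. List medians already used every probe above background, so dropping the brightness limit gave no other value. The test against regions pairs the KO and WT arrays by region. Within the hypothalamus no replicate block could be fitted, since each genotype has 1 array and the labels carry no replicate numbers. Counts within lists and among neighbours of Il18 were not recomputed under the alternatives.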
